A study of Homo sapiens with 6 samples.

Results

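MEIS1, MEIS2, PBX2, PBX3 and PKNOX1 encode homeodomain proteins that act as DNA-binding partners of HOX proteins, and all 5 were found by symbol among the 62703 gene IDs measured. They were taken by name, and each symbol matched 1 ID. Total RNA came from SEM cells, an established human line of B-cell acute lymphoblastic leukaemia with the KMT2A::AFF1 gene fusion. In 3 knock-down libraries (KD) the cells had received a pair of Dicer-substrate siRNAs placed over the back-splice junction of AK_8_2, a circular RNA of the KMT2A::AFF1 fusion. In 3 negative control libraries (NC) they had received a commercial non-targeting duplex with the same lipid reagent, so every library came from cells transfected first in reverse and then forward, a day later. All 6 libraries come from 1 cell line, described as independent replicates. Counts per gene do not resolve back-splice junctions, so the level of AK_8_2 was not analysed here.

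HOX proteins alone bind short and similar DNA sites, and cofactors of the TALE class of homeodomain proteins give them affinity and specificity. PBX proteins pair with HOX proteins directly, while MEIS and PKNOX proteins bind PBX through their N-terminal region, hold it in the nucleus and can join a HOX-PBX complex on DNA. In leukaemias with KMT2A fusions the late HOXA genes, MEIS1 and PBX3 are known as genes bound and held active by the fusion protein, and HOXA9 with MEIS1 transforms blood progenitors in mice.

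Stretches of the coding sequence show how the 5 genes fall into a MEIS/PKNOX and a PBX class, and how far their reads can be told apart. Each stretch starts at the codons of the extended loop that gives the TALE class its name (PYP, proline-tyrosine-proline), printed in capitals, and runs to the recognition helix of the homeodomain. The sequences are from GENCODE 29 transcripts (GRCh38), 90 bases each, 5′ to 3′ on the coding strand.
MEIS1: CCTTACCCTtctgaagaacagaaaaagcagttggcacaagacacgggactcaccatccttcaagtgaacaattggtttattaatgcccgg
MEIS2: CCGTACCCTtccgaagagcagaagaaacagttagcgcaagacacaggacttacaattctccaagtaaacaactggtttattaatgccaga
PKNOX1: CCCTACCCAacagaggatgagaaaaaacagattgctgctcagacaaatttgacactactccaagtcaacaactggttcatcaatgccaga
PBX2: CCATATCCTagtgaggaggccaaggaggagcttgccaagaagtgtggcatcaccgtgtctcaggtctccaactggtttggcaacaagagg
PBX3: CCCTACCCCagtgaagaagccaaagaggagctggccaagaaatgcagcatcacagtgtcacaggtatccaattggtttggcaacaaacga

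Each stretch lies in coding sequence and is split over 2 exons. That of MEIS1 lies at chr2:66547946-66548019 and chr2:66567453-66567468 (plus strand, exons 8 and 9), and that of MEIS2 at chr15:36950324-36950397 and chr15:36896671-36896686 (minus strand, exons 9 and 10). The PKNOX1 stretch lies at chr21:43024874-43024947 and chr21:43028702-43028717 (plus strand, exons 9 and 10). The PBX2 stretch lies at chr6:32187647-32187709 and chr6:32187369-32187395 (minus strand, exons 5 and 6), and the PBX3 stretch at chr9:125935545-125935607 and chr9:125960684-125960710 (plus strand, exons 5 and 6). The exon boundary fell after 74 bases in MEIS1, MEIS2 and PKNOX1 and after 63 bases in PBX2 and PBX3, so its place in the homeobox is shared within each class.

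MEIS1 and MEIS2 were identical at 82.2% of the 90 positions and PBX2 and PBX3 at 81.1%, while PKNOX1 was nearer to MEIS2 (71.1%) and MEIS1 (64.4%). Between the classes identity was 51.1% to 56.7%. The longest run shared by any annotated transcripts of MEIS1 and MEIS2 was 40 bases and that of PBX2 and PBX3 was 21 bases, and neither pair shared a word of 50 bases. PBX2 stands apart in this respect. Of its 50-base words, 13.5% also occur in PBX2P1, a processed pseudogene on chromosome 3, with a longest shared run of 174 bases, so reads from those stretches could be split or dropped in the counting. PBX2P1 itself held 14, 13 and 9 counts in the KD libraries 1, 2 and 3, and 10, 8 and 11 counts in the NC libraries 1, 2 and 3.

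The libraries held 14750579 to 26694160 gene counts. Both replicate 1 libraries stood apart from the other 4: the share of records outside annotated features was 50.03% in KD replicate 1 and 48.6% in NC replicate 1, against 11.3% to 17.3% elsewhere. Multiple alignments made up 31.5% of the records of KD replicate 3, against 4.70% to 17.3% in the other libraries. The labelled cell type was checked against marker lists. The 10 B-cell precursor markers summed to 1515 to 2036 CPM in KD and 1569 to 2049 CPM in NC. CPM are counts scaled to a common library size. PAX5 stood at 850 to 1217 CPM in KD, whereas DNTT, the polymerase of junctional diversity, stood at 0 to 1.74 CPM over all libraries. RAG1 was also low, at 0.471 to 2.14 CPM in KD and 0.393 to 3.92 CPM in NC. CD79B stood at 4.48 to 6.46 CPM in KD and 4.26 to 6.16 CPM in NC. The 7 myeloid markers summed to 50.1 to 51.8 CPM in KD and 47.9 to 55.9 CPM in NC, led by CD33 and CSF1R, named after their values were seen; MPO stood at 0.262 to 4.39 CPM in KD and 0.391 to 3.30 CPM in NC. The 5 T-cell markers summed to 0.118 to 0.304 CPM and the 4 erythroid markers to 0.131 to 0.315 CPM outside replicate 1, and to 8.73 and 3.10 CPM in KD replicate 1 and 10.8 and 3.23 CPM in NC replicate 1.

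MEIS1 (ENSG00000143995.20, chr2:66433452-66573869, plus strand), the MEIS protein most closely tied to leukaemia, was the most abundant of the 5 per length. In RPKM, here CPM per kilobase of annotated exon, the KD libraries 1, 2 and 3 reached 17.3, 18.4 and 20.3, and the NC libraries 1, 2 and 3 reached 17.4, 20.8 and 18.6. Its mean over the 6 libraries stood above 88.7% of 19848 protein-coding genes on that scale. MEIS2 (ENSG00000134138.22, chr15:36889204-37101299, minus strand), its close paralogue, known for roles in limb, heart and neural development, was the least abundant. It had 1.30, 1.34 and 1.32 RPKM in KD and 1.40, 1.21 and 1.44 RPKM in NC. The 2 MEIS paralogues did not come near each other in any library.

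PBX2 (ENSG00000204304.12, chr6:32184741-32190186, minus strand), a broadly expressed PBX protein, had 11.8, 17.4 and 18.5 RPKM in KD and 12.8, 18.2 and 17.7 RPKM in NC. PBX3 (ENSG00000167081.18, chr9:125747345-125967377, plus strand), the PBX protein that supports transformation by MEIS1 and HOXA9 in mouse blood progenitors, had 13.3, 13.7 and 16.6 RPKM in KD and 14.6, 14.3 and 16.5 RPKM in NC. The ranges of the PBX genes overlapped, and their order turned with the replicate number: PBX3 was above PBX2 in both replicate 1 libraries and PBX2 above PBX3 in the other 4. PKNOX1 (ENSG00000160199.15, chr21:42974510-43033931, plus strand), also called PREP1, which competes with MEIS proteins for PBX and restrains tumours in mice, had 5.46, 4.94 and 5.93 RPKM in KD and 5.41, 4.66 and 5.47 RPKM in NC. It lay below both PBX genes and above MEIS2 in every library.

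**Figure D1:**
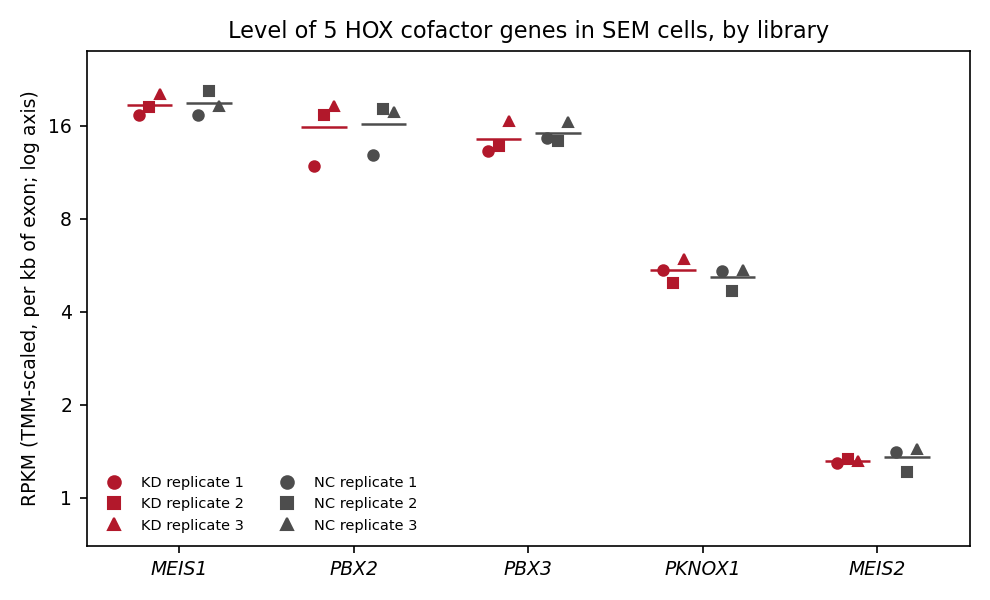
Level of each of the 5 genes in RPKM (CPM per kilobase of exon, log axis), with KD libraries left of NC libraries; symbols mark the replicate number and bars the mean of 3 libraries. MEIS1, PBX2 and PBX3 lie between 11.8 and 20.8 RPKM, PKNOX1 between 4.66 and 5.93 and MEIS2 between 1.21 and 1.44.

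The order of levels was MEIS1, PBX2, PBX3, PKNOX1 and MEIS2 by mean. MEIS1 was above both PBX genes in all 6 libraries, though the ranges of MEIS1 and PBX2 overlapped, and the PBX genes did not differ beyond their spread. PBX3 exceeded PKNOX1 by 2.43 to 3.07 times within a library. These steps depend on the length used: divided by the longest transcript in place of all exons, the means were 40.2 RPKM for MEIS1, 21.8 for PBX2, 23.1 for PBX3, 7.81 for PKNOX1 and 2.98 for MEIS2, which puts PBX3 above PBX2.

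MEIS1 held most of the summed level of the MEIS/PKNOX class. It made up 67.4%, 74.4% and 73.6% of the summed RPKM of MEIS1, MEIS2, MEIS3, PKNOX1 and PKNOX2 in the KD libraries, and 68.3%, 77.8% and 72.8% in NC. PKNOX1 held 20.0% to 21.5% in KD and 17.4% to 21.5% in NC, and MEIS2 4.77% to 5.42% in KD and 4.52% to 5.65% in NC.

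The comparison of KD with NC asks whether transcripts of the cofactors changed when AK_8_2 was targeted, and no change of any of the 5 was detected. All 5 passed the filter on low counts. By edgeR's quasi-likelihood test, adjusted over all genes by Benjamini-Hochberg, 0 of the 5 were called, against a background of 0 of 16929 genes (0%), with 52 genes and 0 of the 5 at an unadjusted p under 0.05. DESeq2 and limma-voom also called 0 genes. With the replicate number as a block, 29 of the 16929 genes passed (0.171%) and again 0 of the 5, with 841 genes and 0 of the 5 at an unadjusted p under 0.05. The group-only fit counts differences between replicate numbers as spread within a group, so its 0 calls carry less information. Its biological coefficient of variation, the relative spread between libraries of a group, was 0.372, against 0.0683 with the block. The CPM ranges of KD and NC overlapped for all 5 genes. This does not set them apart, since only 581 of the tested genes (3.43%) had ranges that did not overlap. In bulk RNA a change in the share of cells with a transcript and a change per cell cannot be told apart.

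For MEIS1 the CPM values were 189, 201 and 222 in the KD libraries, in the order of their numbers, against 190.1, 227 and 203 in the NC libraries. The groups overlapped, and the direction turned between replicate numbers, with the KD library lower by 0.18 on the log2 scale in replicate 2, higher by 0.13 in replicate 3 and level with NC in replicate 1 (-0.0068). The fitted log2 fold change was -0.02 (SE 0.12, edgeR adjusted p 1.00), with a 95% interval of -0.29 to 0.25 without the block and -0.14 to 0.10 with it. In folds, the blocked interval runs from 0.910 to 1.07 times the NC level.

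MEIS2 had 14.02, 14.5 and 14.2 CPM in KD and 15.2, 13.05 and 15.6 CPM in NC. The 3 KD values lay inside the NC range. Its log2 fold change was -0.04 (SE 0.11, edgeR adjusted p 1.00), with an interval of -0.29 to 0.22 without the block and -0.25 to 0.19 with it. MEIS2 was the least deeply counted of the 5, with 244 to 368 counts per library, and a count of 244 carries a counting error of 6.40% alone. The corresponding figure for the lowest MEIS1 count, 3057, was 1.81%.

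PBX2 had 51.5, 75.5 and 80.6 CPM in KD and 55.8, 79.1 and 77.0 CPM in NC. The low value of each group was its replicate 1 library, so the spread within a group (15.5 CPM SD in KD, 12.9 CPM in NC, n = 3 each) was far larger than the difference of the means. Its log2 fold change was -0.03 (SE 0.21, edgeR adjusted p 1.00). Its 95% interval was -0.52 to 0.46 without the block and the narrower -0.16 to 0.08 with it. The replicate 1 libraries are those with many records outside genes, and the part of that difference in the lower PBX2 value was not tested.

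PBX3 had 60.1, 62.1 and 75.3 CPM in KD and 66.1, 64.7 and 74.5 CPM in NC. The KD library was lower in replicates 1 and 2 and about level in replicate 3, by -0.14, -0.06 and 0.01 on the log2 scale. Its log2 fold change of -0.06 (SE 0.12, edgeR adjusted p 1.00) had an interval of -0.34 to 0.23 without the block and -0.18 to 0.06 with it. PKNOX1 was the 1 gene of the 5 with an estimate above zero and the 1 with the same sign in all 3 replicate numbers. It had 41.6, 37.7 and 45.2 CPM in KD and 41.2, 35.5 and 41.7 CPM in NC, differences of 0.01, 0.09 and 0.12 on the log2 scale. The fitted value was 0.07 (SE 0.11, edgeR adjusted p 1.00), with an interval of -0.19 to 0.33 in the group-only fit and -0.06 to 0.21 in the blocked one, and the ranges of the groups overlapped.

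**Figure D2:**
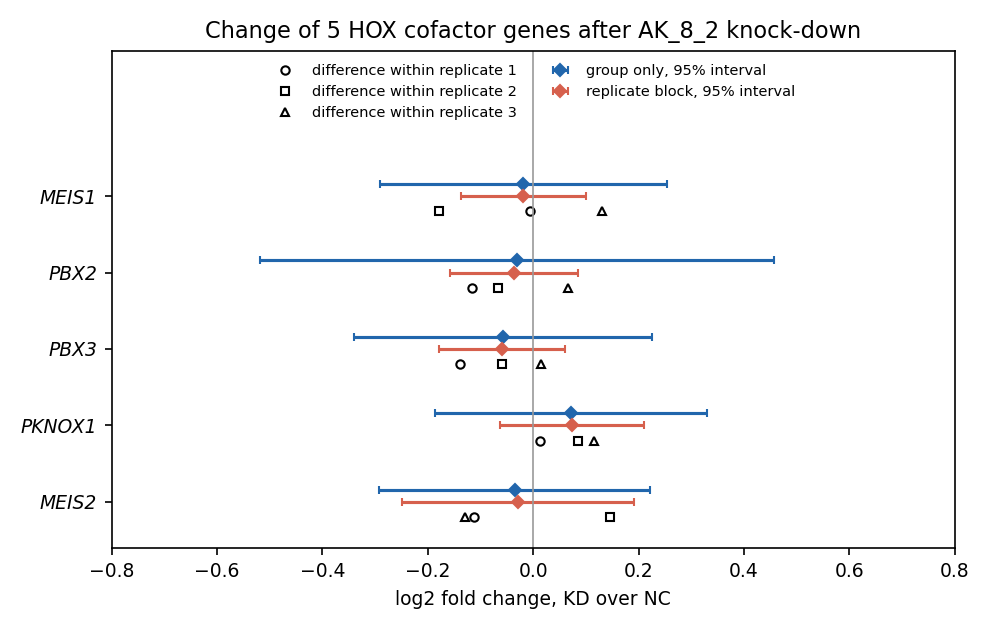
Log2 fold change, KD over NC, of the 5 genes with 95% intervals from the group-only fit and from the fit with the replicate number as a block; open symbols are the differences within each replicate number. Every interval includes 0, and the widest, for PBX2 without the block, runs from -0.52 to 0.46.

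Over the 5 genes the median log2 fold change was -0.03, beside -0.0036 over all 16929 tested genes. For all 5 the 95% interval lay inside 1.5-fold, up or down, with and without the block, as it did for 50.7% of all tested genes without it and 66.6% with it.

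Ratios of paralogue counts within a library do not depend on how libraries are scaled. The log2 ratio of MEIS1 to MEIS2 counts was 3.75, 3.80 and 3.96 in the KD libraries and 3.64, 4.12 and 3.70 in the NC libraries. The difference of 0.01 was smaller than the spread in either group (SD 0.11 in KD and 0.26 in NC, n = 3 each; exact two-sided permutation test p = 1.00, where 0.1 is the smallest p possible). The log2 ratio of PBX3 to PBX2 was 0.22, -0.28 and -0.10 in KD and 0.25, -0.29 and -0.05 in NC. Here the ratio went with the replicate number: KD minus NC was -0.02, 0.01 and -0.05 within numbers 1, 2 and 3, and -0.02 over the means (exact permutation p = 0.8), beside an SD of 0.25 in KD and 0.27 in NC. MEIS1 to PBX3 gave 1.65, 1.69 and 1.56 in KD and 1.52, 1.81 and 1.44 in NC, a difference of 0.04 (exact permutation p = 0.8). Adjusted over the 3 ratios, every p was 1.00 (exact permutation tests).

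**Figure D3:**
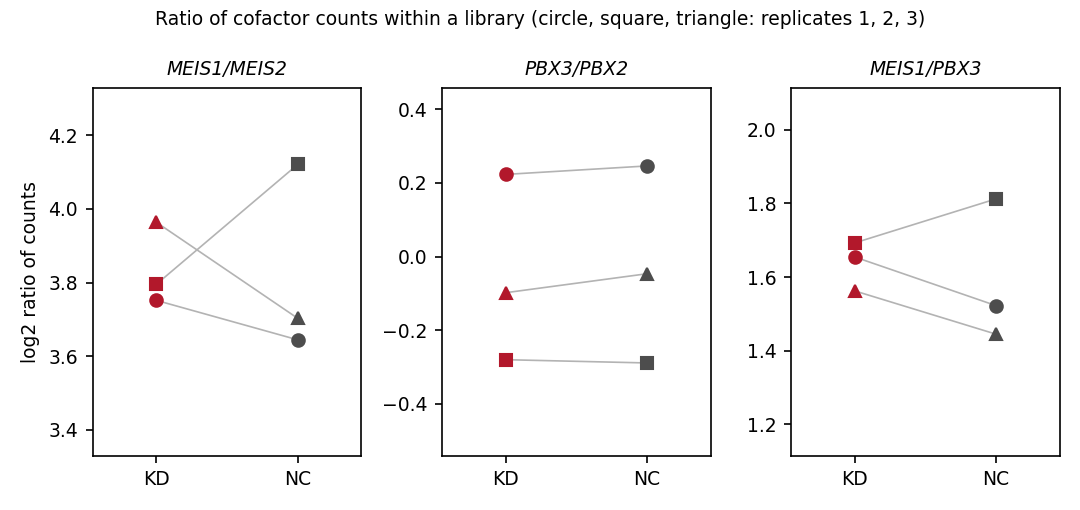
Log2 ratio of counts within a library for MEIS1 to MEIS2, PBX3 to PBX2 and MEIS1 to PBX3, with KD left of NC; grey lines join libraries with the same replicate number. The PBX3 to PBX2 ratio keeps the order of the replicate numbers in both groups, 0.22 and 0.25 in replicate 1 against -0.28 and -0.29 in replicate 2.

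The remaining TALE genes set these 5 in their family. Of 19 listed TALE homeobox genes, 11 passed the filter on low counts, and 0 were called in either direction, with or without the block (0% and 0.171% of all tested genes); the median log2 fold change of the 11 was -0.0064. TGIF2 and TGIF1, which repress TGF-beta and retinoid responsive genes, were the other TALE genes with clear expression. TGIF2 had 51.6, 73.1 and 78.0 CPM in KD and 58.9, 74.8 and 70.0 CPM in NC, and TGIF1 had 26.0, 27.0 and 25.3 CPM in KD and 26.0, 30.0 and 21.9 CPM in NC. TGIF2 was low in both replicate 1 libraries, as was PBX2. Their log2 fold changes were -0.0064 for TGIF2 and 0.0081 for TGIF1.

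The Iroquois genes IRX5 and IRX3 and the testis-linked PBX4 came next, at 2.94 to 5.46 CPM, 2.04 to 6.47 CPM and 0.840 to 2.98 CPM in KD, and 2.74 to 5.66 CPM, 2.23 to 6.71 CPM and 0.787 to 2.86 CPM in NC. Per length, IRX5 and IRX3 had ranges that overlapped with that of MEIS2. MEIS3 and PKNOX2 were nearly silent outside replicate 1. MEIS3 held 72, 6 and 3 counts in KD and 55, 3 and 2 counts in NC, and PKNOX2, the paralogue of PKNOX1, held 95, 0 and 1 counts in KD and 63, 4 and 1 counts in NC.

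The same split by replicate number held for every TALE gene that failed the filter. MEIS3, PKNOX2, TGIF2LX, IRX1, IRX2, IRX4, IRX6 and MKX had 10 to 95 counts in the replicate 1 libraries and 0 to 7 counts in the other 4 libraries. It was not limited to them. PBX4, IRX3 and IRX5, which passed the filter, had mean CPM of 2.92, 6.59 and 5.56 in replicate 1, beside 1.02, 2.38 and 3.12 in replicates 2 and 3. For MEIS2, PKNOX1 and TGIF1 the mean CPM of replicate 1 was 14.6, 41.4 and 26.0, beside 14.3, 40.0 and 26.0 in replicates 2 and 3, so their level did not follow that split. The genes MEIS1-AS2 and MEIS1-AS3, which overlap MEIS1 on the opposite strand, held 67, 52 and 50 and 29, 1 and 0 counts in KD, and 58, 52 and 44 and 15, 5 and 2 counts in NC, small beside the 3057 to 5227 counts of MEIS1. Since the strand setting of the counting is not given in the sources used here, antisense reads could not be separated from MEIS1 reads.

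**Figure D4:**
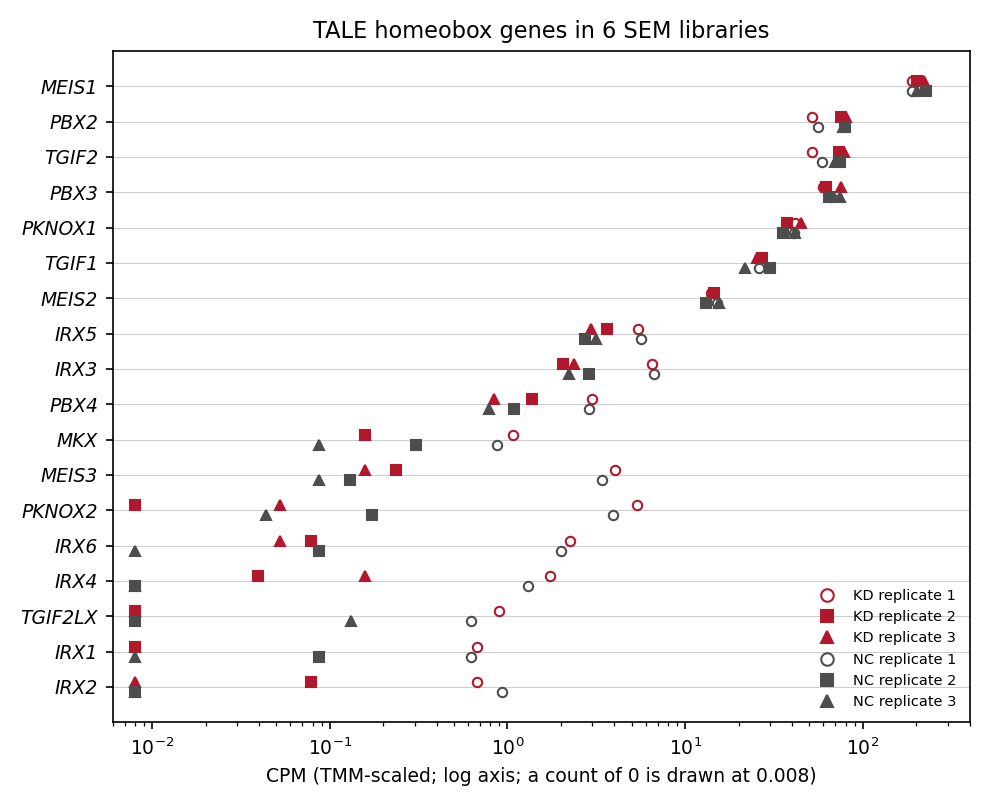
CPM (log axis) of TALE homeobox genes in each library, KD above NC within a row; replicate 1 libraries are open circles, and a count of 0 is drawn at 0.008. The 5 cofactors, TGIF1 and TGIF2 lie above 12 CPM in all libraries, while the 8 genes that failed the filter reach above 0.6 CPM only in replicate 1.

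The 3 HOX genes with the highest CPM were all from the HOXA cluster. Of 39 listed HOX genes, 11 passed the filter and 0 were called in either direction, without or with the block (0% and 0.171% of all tested genes). The median log2 fold change of the 11 was 0.01. HOXA7 (82.7 ± 9.19 CPM in KD, 77.6 ± 11.2 CPM in NC), HOXA9 (76.2 ± 6.89 and 72.6 ± 4.60 CPM) and HOXA10 (45.7 ± 3.72 and 45.5 ± 2.40 CPM; SD, n = 3 each) led, with log2 fold changes of 0.09, 0.07 and 0.0053. HOXC4, HOXA5, HOXA6 and HOXB7 had means of 10.99, 7.57, 4.71 and 4.92 CPM in KD, and 10.9, 7.44, 5.34 and 3.78 CPM in NC. HOXB3 reached a mean above 1 CPM through replicate 1 alone, with 3.83 CPM in KD replicate 1, 4.66 CPM in NC replicate 1 and at most 0.0786 CPM elsewhere. HOXA3 was the 1 tested HOX gene whose groups did not overlap, at 7.38, 7.23 and 7.30 CPM in KD and 8.14, 8.13 and 9.09 CPM in NC, beside the 3.43% of all tested genes; it did not pass the test (log2 fold change -0.21, SE 0.17, edgeR adjusted p 1.00).

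Genes known from mouse or human leukaemia as targets or partners of HOX, MEIS and PBX proteins were likewise uncalled. Of 32 listed genes 28 were tested, and 0 were called in either direction without or with the block (0% and 0.171% of all tested genes). The median log2 fold change of the 28 was 0.00022, with 14 above zero. FLT3, a receptor tyrosine kinase gene that MEIS1 and HOXA9 activate in mouse leukaemia models, had 1087, 1130 and 1292 CPM in KD and 1094, 1229 and 1241 CPM in NC (log2 fold change -0.02, blocked interval -0.12 to 0.07). The list members with the smallest unadjusted p in the group-only edgeR fit were GFI1 (0.446), SOX4 (0.463), FOXO3 (0.493) and PBXIP1 (0.532). GFI1, a transcriptional repressor, had a log2 fold change of 0.08, and SOX4, a transcription factor repressed by CEBPA, of 0.12. FOXO3, a forkhead factor downstream of AKT, had a log2 fold change of -0.09, and PBXIP1, a PBX-interacting protein, of -0.10. SOX4 was the 1 list member at an unadjusted p under 0.05 with the block, a level that 841 of all 16929 tested genes reached. SOX4 had 111, 121 and 142 CPM in KD and 93.2, 117 and 133 CPM in NC (edgeR blocked log2 fold change 0.13, adjusted p 0.903). The fusion partner genes had log2 fold changes of -0.07 for KMT2A and -0.02 for AFF1.

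The pattern of each cofactor over the 6 libraries was set against 9214 tested genes with a symbol and a mean of at least 10 CPM, by Pearson's r of log2 CPM. Both replicate 1 libraries share a high portion of records outside genes, so the values are a description of these libraries. Closest to MEIS1 were MAPKAPK5-AS1 (0.995), SUGP2 (0.992) and POMGNT1 (0.992), and among those closest to MEIS2 were NHEJ1 (0.982) and GDAP2 (0.971). The genes nearest to PBX2 were DGAT1 (0.999), DYNLL2 (0.998) and RPA1 (0.998), to PBX3 RAB5B (0.991), TRA2A (0.988) and RPRD1A (0.986), and to PKNOX1 DDX10 (0.990), UPF2 (0.979) and ZNF770 (0.978). An r above 0.9 was reached with PBX2 by 2384 of the genes, with MEIS1 by 314, with PBX3 by 117, with PKNOX1 by 73 and with MEIS2 by 28. PBX2, whose values split by replicate 1 against the rest, shared its pattern with far more genes than MEIS2 or PKNOX1, which did not split in that way. MEIS1 was also lowest in both replicate 1 libraries, at 189 and 190.1 CPM against 201 to 227 CPM elsewhere. Whether the split bears on these numbers of genes was not tested.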

How the data were processed

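Each library has 1 deposited file of unnormalised counts by Ensembl gene ID. The submitters' processing notes list STAR 2.7.10a and HTSeq 0.11.1, beside FastQC 0.11.8 and DESeq2, with the build hg38; the annotation release and strand setting used are not given in the sources used. The 5 summary lines that name no gene were kept out of library sizes and tests; gene counts were 33.5% to 60.2% of all records.

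Of 62703 IDs, 62686 were in the name table and 58264 in GENCODE 29, which gave coordinates and lengths, though the submitters may have counted on another release. Counts were tested across all genes with edgeR 4.0.16 in R 4.3.3 (filterByExpr, TMM, robust quasi-likelihood fit, group as the only term, Benjamini-Hochberg adjusted p under 0.05). DESeq2 1.42.0, limma 3.58.1 and the other alternatives are in the closing section. CPM uses TMM-scaled totals; differences within a replicate number use a prior count of 2 and ratios a pseudocount of 0.5.

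KD and NC libraries numbered 1, 2 and 3 deviated together (correlations of 0.89, 0.62 and 0.61, each above the limit of 0.1), so blocked values are given. The labels state no pairing. KD replicate 2 correlated at 0.59 with NC replicate 3, and KD replicate 3 at 0.55 with NC replicate 2. The correlations thus set replicate 1 apart, but cannot show that replicates 2 and 3 pair by number. Libraries of a group differed beyond sampling noise (a chi-square of 20.2 to 82.0 for each degree of freedom).

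The genes and lists were chosen with earlier results of these data known. Named genes are the 5 cofactors, listed TALE genes, HOX genes with a mean of at least 1 CPM, FLT3 and the 4 listed targets with the smallest p, KMT2A, AFF1, and the 3 genes most like each cofactor; others named from the lists were chosen after their values were seen. A few genes that this rule names are not reported here.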

Additional observations from a re-analysis of the deposited data

How the results depend on the processing

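None of the 15 alternatives called any of the 5 cofactors, and the smallest adjusted p over the 5 and all alternatives was 0.980 (edgeR, without KD replicate 1). The number of genes called over all genes was 0 in each alternative without the block and was 29 with the replicate block, 5 with the block and without replicate 1, 119 without replicate 2 and 73 without replicate 3; the last 2 fits tested 29982 and 29966 genes. The signs of the small estimates depended on single libraries. Leaving out 1 library in turn, the log2 fold change ran from -0.11 to 0.072 for MEIS1, from -0.095 to 0.052 for MEIS2, from -0.18 to 0.15 for PBX2, from -0.19 to 0.045 for PBX3 and from -0.024 to 0.15 for PKNOX1. The median log2 fold change over all tested genes was 0.11 without KD replicate 2 and 0.10 without KD replicate 3. It was -0.11 without NC replicate 2 and -0.094 without NC replicate 3. These fits tested 31398 to 31605 genes, so their medians are not over the 16929 genes tested with all 6 libraries. With the replicate block, MEIS1 was at 0.048 without replicate 2, and MEIS2 was at 0.030 without replicate 3 and at 0.012 without replicate 1, where PBX2 was at 1.5e-06. Without the replicate 1 libraries of both groups, an alternative added after seeing the data, MEIS2 was at 0.0049 and PBX2 at 0.00083. The levels moved with the length used, to 40.2, 2.98, 21.8, 23.1 and 7.81 RPKM for MEIS1, MEIS2, PBX2, PBX3 and PKNOX1 with the longest transcript. Without 1 replicate number in turn, the log2 ratio of KD minus NC ran from -0.11 to 0.18 for MEIS1 to MEIS2 and from -0.00099 to 0.12 for MEIS1 to PBX3. The cause of these turns was not tested. DESeq2 size factors, DESeq2, limma-voom and no filter on low counts kept the sign of all 5 estimates. Depth limits MEIS2 most, at 244 to 368 counts per library.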
